A study of Mus musculus with 12 samples.

Results

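Pseudogenes with symbols ending in -ps, or in -ps and a number, were followed in RNA sequencing of the stromal vascular fraction (SVF) of inguinal white fat. The members were all such genes with a mean normalized count of at least 10 over the 12 libraries. They numbered 141 of 1556 genes with such a symbol and of 55536 genes in all. Another 924 genes with such a symbol were listed at 0 in all 12 libraries. Of the 141 members, 65 were copies of ribosomal protein genes and 76 were not.

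The SVF is the mixture of stromal, vascular and immune cells left when adipocytes are removed from fat, and it holds the adipocyte progenitor cells. There were 4 libraries from 2-month-old control mice, 4 from 12-month-old control mice and 4 from 12-month-old Pdgfrβ-KO mice. All were male, were kept at room temperature and came from a mixed C57BL6/J-129SV background. The labels give the controls as wild type and the other group as PdgfrB Knock Out. By the study's methods the controls carried the Sma-CreERT2 driver with a reporter, and the knockout mice carried Sma-CreERT2 with floxed Pdgfrb, deleted by tamoxifen in Sma+ cells alone. The study does not state whether the sequenced controls also received tamoxifen. Pdgfrb, the targeted gene, was still read in every library, and which cells its reads came from was not tested. It stood at 3000, 4380, 3258 and 2399 normalized counts in the 12-month controls and at 1882, 2145, 1707 and 1749 in the Pdgfrβ-KO libraries, a log2 fold change of -0.77 (95% interval -1.14 to -0.41, adjusted p = 0.016 from limma). The 6 markers of the SVF (Pdgfra, Dcn, Pecam1, Cdh5, Ptprc and Acta2, for stromal, endothelial, blood and Sma+ cells) were read in every library, with sums of 64955 to 109675. In units of 1000000, the totals of normalized counts ran from 19.62 to 21.87 per library, and the counts behind them were estimated at 13.78 to 29.01, lowest in the Pdgfrβ-KO libraries. No source ties libraries to litters or to the share of each parental strain, so p-values measure only the spread between these libraries.

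A processed pseudogene is a messenger RNA that was copied back into DNA and inserted elsewhere in the genome. It has no introns and no promoter of its own unless it landed near one. Unprocessed pseudogenes arose by duplication, and unitary ones are single genes that lost their reading frame. Because a young copy is nearly identical to its parent, a short read from the parent can match the copy, and inbred strains can differ in the copies they carry and in the bases that tell copy and parent apart. Ribosomal protein genes, which are among the most strongly transcribed genes of any cell, have many such copies.

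In the annotation used (GENCODE vM21, build GRCm38), 111 members were of a processed type and 18 of an unprocessed type. A further 5 were annotated as protein coding (Ftl1-ps1, Nutf2-ps1, Rpl10-ps3, Rpl9-ps6 and Rps12-ps3), 3 as polymorphic pseudogenes (Art2a-ps, Cdk3-ps and Slc22a13b-ps), 2 as transcribed unitary pseudogenes and 2 as non-coding RNAs. Polymorphic is the annotation's term for a gene broken in the reference genome and intact in other strains or individuals. A parent gene was assigned to 127 members, 118 by symbol and 9 from the gene description, which made 97 parents. In 116 of these pairs the parent lay on another chromosome. Among 126 members aligned to a parent transcript the median identity was 99.3%, 81 were at least 99% identical, and 21 were 100% identical over their whole length. Cut into overlapping windows of 50 bases, the median member shared 78.3% of its windows with the transcript of another gene. All windows of 27 members were found in another gene, and 104 members shared at least 50% of theirs. Only Bambi-ps1, Cdk3-ps and Slc2a4rg-ps shared none. How reads with several matches were counted is not given in the sources used here, so for most members the normalized count cannot be divided between the copy and its parent.

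**Figure D1:**
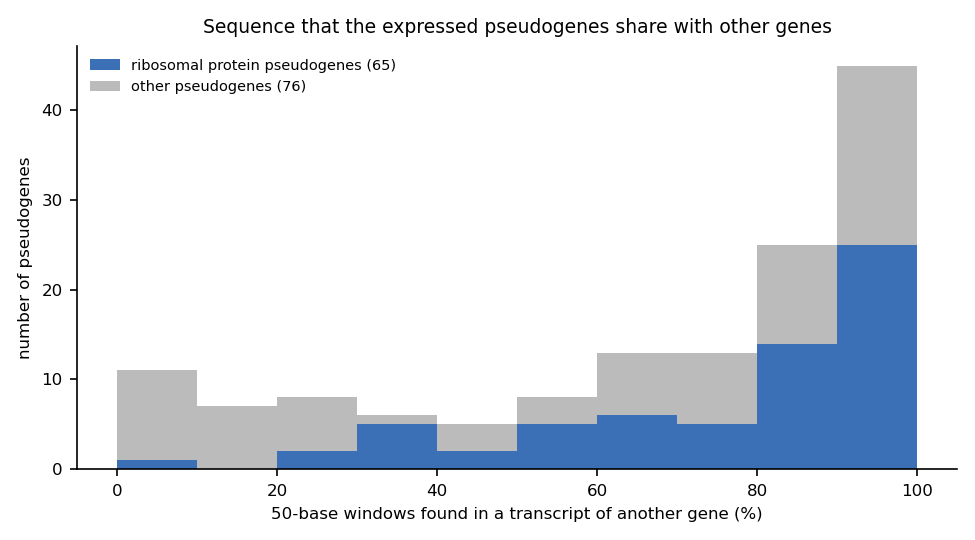
Number of members (vertical axis) by the share of their 50-base windows found in a transcript of another gene (horizontal axis, percent, in bins of 10), with the 65 ribosomal protein copies and the 76 others stacked. The tallest bin is at the right end, and 27 members stand at 100% and 3 at 0.

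The copies of Rps15a and Rps13, small ribosomal subunit genes on chromosome 7, make up all 4 members for which the 12-month controls stood above both other groups. Their sequences are shown so that the few bases separating copy and parent can be seen. All are the GENCODE vM21 transcript sequences on GRCm38, written 5′ to 3′, with substitutions counted from base 1 at the 5′ end of the parent transcript and the parent's base given first. Capitals mark the bases that differ between the parent and at least 1 copy. For Rps15a the stretch is 86 coding bases, bases 170 to 255 of the parent transcript (chr7:118114801-118115130, minus strand, introns included in the span).
Rps15a: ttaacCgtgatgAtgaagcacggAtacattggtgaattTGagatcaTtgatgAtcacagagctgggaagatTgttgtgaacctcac
Rps15a-ps7: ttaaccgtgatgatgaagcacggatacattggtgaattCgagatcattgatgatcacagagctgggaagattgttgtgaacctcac
Rps15a-ps6: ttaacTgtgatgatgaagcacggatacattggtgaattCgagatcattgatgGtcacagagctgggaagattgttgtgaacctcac
Rps15a-ps5: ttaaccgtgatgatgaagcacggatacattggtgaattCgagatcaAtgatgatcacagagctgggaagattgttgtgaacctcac
Rps15a-ps3: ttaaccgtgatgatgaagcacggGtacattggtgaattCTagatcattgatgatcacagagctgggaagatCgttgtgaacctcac
Rps15a-ps4: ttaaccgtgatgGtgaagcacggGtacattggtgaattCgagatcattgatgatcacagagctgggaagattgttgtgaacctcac
Rps15a-ps7 (chr2:152185487-152185572, minus strand) differed here by T208C alone. Rps15a-ps6 (chr11:6172840-6172925, minus strand) had C175T, T208C and A222G, and Rps15a-ps5 (chr5:105797517-105797602, minus strand) had T208C and T216A. Rps15a-ps3 (chr4:150847226-150847311, plus strand) had A193G, T208C, G209T and T241C, and Rps15a-ps4 (chr4:132220241-132220326, minus strand) had A182G, A193G and T208C. Over the whole alignments, the substitutions numbered 4 in Rps15a-ps7, 5 in Rps15a-ps6, 5 in Rps15a-ps5, 7 in Rps15a-ps3 and 12 in Rps15a-ps4, and T208C was the sole one that all 5 shared. Its place in the parent is base 118114848 of chromosome 7, in exon 3 of Rps15a.

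For Rps13 the stretch is the last 87 coding bases before the stop codon, bases 455 to 541 of the parent transcript (chr7:116331553-116332434, minus strand, introns included in the span), shown because the copies differ in level while 1 of them is identical to the parent.
Rps13: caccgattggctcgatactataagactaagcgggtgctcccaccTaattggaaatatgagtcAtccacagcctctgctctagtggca
Rps13-ps1: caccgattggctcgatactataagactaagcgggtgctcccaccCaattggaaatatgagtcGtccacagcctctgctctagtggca
Rps13-ps4: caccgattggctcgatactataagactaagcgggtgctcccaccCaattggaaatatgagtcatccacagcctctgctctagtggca
Rps13-ps2: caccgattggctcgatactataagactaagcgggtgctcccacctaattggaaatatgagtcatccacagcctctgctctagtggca
Rps13-ps1 (chr8:87048086-87048172, plus strand) had T499C and A517G, and these were its only substitutions against the parent. Rps13-ps4 (chr8:119602173-119602259, minus strand) shared T499C and had 2 further substitutions outside this stretch, C194A and G209C. Rps13-ps2 (chr7:88530446-88530532, minus strand) had no substitution in 453 aligned bases. T499C falls at base 116332390 of chromosome 7, in exon 5 of Rps13.

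The first question was how many members changed with age, with the loss of Pdgfrb, or with both together. Every gene was tested with limma on log2(normalized count + 1), and a call is an adjusted p under 0.05 over all genes tested. Between 2 and 12 months, 128 members could be tested, of which 13 were higher and 11 lower at 12 months. These are 10.2% and 8.59% of the members tested, beside 11.3% higher and 11.4% lower among all 16399 genes tested, so the share of members was not above the background. Groups are called apart when the lowest library of one lies above the highest of the other. By that rule 12 members were higher and 12 lower at 12 months, beside 12.3% and 12.5% of all genes tested. Between the 12-month Pdgfrβ-KO and the 12-month controls, 133 members were tested, with 5 higher and 7 lower, or 3.76% and 5.26% beside a background of 4.96% and 4.46%. Among those tested, 10 were apart upwards and 10 downwards, against 9.05% and 8.06% of all genes. Pdgfrβ-KO against 2-month controls, where age and genotype differ together, gave 29 higher and 18 lower of 138 tested, or 21% and 13% beside 22.4% and 22.7%. Of the tested members 23 were apart upwards and 14 downwards there, against 20.4% and 20.4% of all genes. The comparisons share libraries with each other and are not independent.

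Sizes differed more than counts. At least 4-fold changes between the control ages were found for 11 of the 128 members tested (8.59%), beside 202 of all genes tested (1.23%). In Pdgfrβ-KO against 12-month controls they were found for 5 members (3.76%), beside 147 genes (0.899%). Low values enter here, since 71 members had a mean under 30, and 10 and 11 of the members tested in these 2 comparisons had 1 group mostly under 10. Over the 3 groups, 88 members (62.4%) had every pair of groups overlapping, as had 49.7% of genes with a mean of at least 10. The 2-month controls stood above both other groups for 8 members (5.67%) and below both for 5 (3.55%), where the shares of all genes were 9.25% and 8.32%. Pdgfrβ-KO stood above both for 9 (6.38%) and below both for 5 (3.55%), where all genes gave 7.27% and 5.48%. The 12-month controls stood above both for 4 members (2.84%), against 1.53% of all genes, and below both for none.

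**Figure D2:**
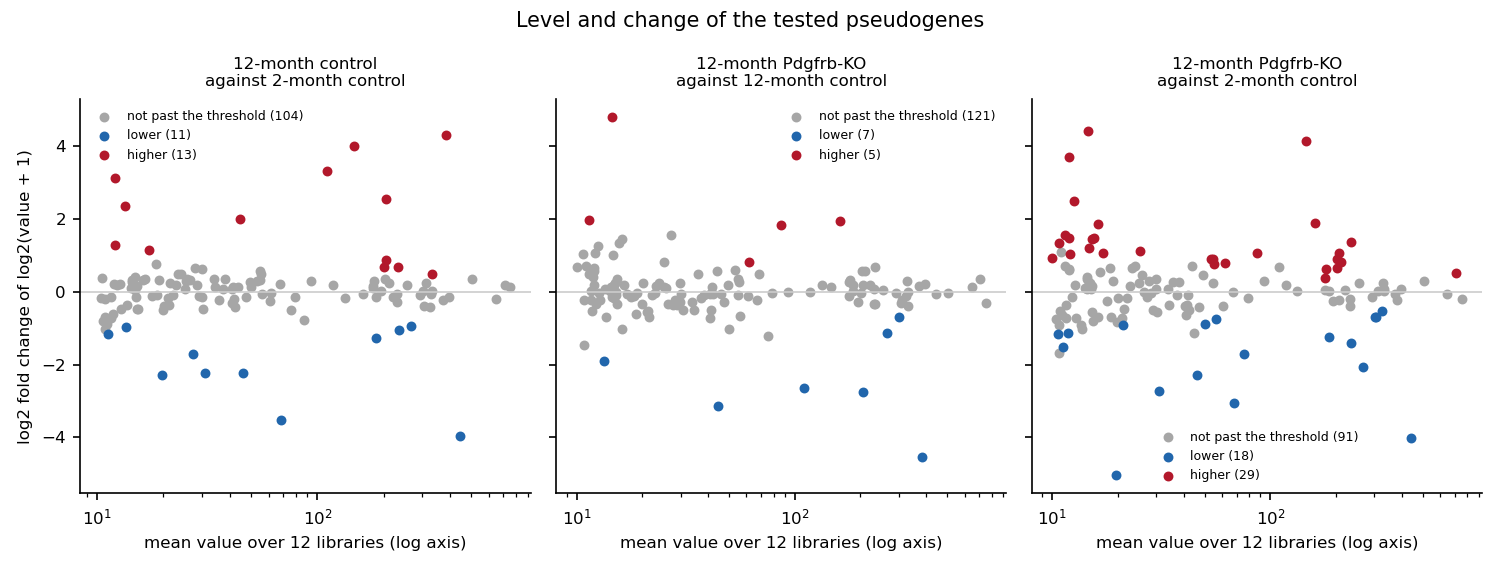
Log2 fold change of each tested member (vertical axis, on log2(value + 1)) against its mean normalized count over 12 libraries (horizontal log axis) in each of the 3 comparisons, with colours for members higher, lower or not past the limma threshold. Rpl34-ps1 lies at -3.97 with age, and Rps13-ps1 at 4.31 with age and -4.53 in Pdgfrβ-KO against the 12-month controls.

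The members high in the 12-month controls alone were Rps13-ps1 (ENSMUSG00000066362, chromosome 8) and copies of Rps15a. Rps13-ps1 stood at 9, 474, 56 and 15 normalized counts in the 2-month controls, at 1458, 930, 563 and 883 in the 12-month controls, and at 94, 66, 21 and 16 in Pdgfrβ-KO. All 12-month controls lay above every library of the other groups, and 2-month replicate 2 lay far above the other 2-month libraries. The log2 fold change was 4.31 with age (95% interval 1.70 to 6.92, adjusted p = 0.0301, limma) and -4.53 in Pdgfrβ-KO against the 12-month controls (-5.64 to -3.42, adjusted p = 0.000659). Pdgfrβ-KO and the 2-month controls overlapped, with a difference of -0.22 (-2.47 to 2.04). The age call rested on the full set: leaving out any of the 8 libraries other than 2-month replicate 2 gave adjusted p from 0.0524 to 0.0919, while without 2-month replicate 2 the log2 fold change was 5.44 with adjusted p = 0.000515. With no filter on low values the age call was also lost (adjusted p = 0.0935). In bulk libraries, fewer cells of a type and less RNA per cell cannot be told apart, here and below.

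Copies of Rps15a followed the same course at lower levels. They are not independent of one another. Rps15a-ps7 shared 39.7% of its 50-base windows with Rps15a-ps6, 34.7% with Rps15a-ps5 and 60.1% with Rps15a. Some of the same reads may lie behind several copies, which was not tested. Rps15a-ps6 (ENSMUSG00000083022, chromosome 11) had 37, 280, 72 and 36 normalized counts at 2 months, 679, 312, 348 and 441 in the 12-month controls and 79, 80, 69 and 33 in Pdgfrβ-KO. The 12-month controls were again above all other libraries, and again 2-month replicate 2 was the nearest. Its log2 fold change was 2.54 with age (1.13 to 3.94, adjusted p = 0.0205, limma) and -2.76 in Pdgfrβ-KO (-3.45 to -2.08, adjusted p = 0.000667); the age call was lost without 2-month replicate 1 (adjusted p = 0.0547), without 12-month replicate 4 (adjusted p = 0.0609) and with no filter (adjusted p = 0.0855). Rps15a-ps7 (ENSMUSG00000081087, chromosome 2) had 12, 79, 20 and 15, then 381, 241, 139 and 266, and 60, 47, 47 and 15 in Pdgfrβ-KO. It rose by 3.32 (2.23 to 4.41, adjusted p = 0.000955) and was lower in Pdgfrβ-KO by a log2 fold change of -2.65 (-3.56 to -1.73, adjusted p = 0.00325), with the 12-month controls apart from both. For Rps15a-ps5 on chromosome 5 the values were 22, 60, 14 and 13, then 129, 64, 72 and 121, and 11, 7, 12 and 9. For this copy every Pdgfrβ-KO library lay under every 2-month library. That difference of -1.14, in which age and genotype differ together, did not pass (adjusted p = 0.0643, limma). Rps15a-ps5 rose with age by 2.00 (adjusted p = 0.00625) and its log2 fold change in Pdgfrβ-KO against the 12-month controls was -3.14 (adjusted p = 0.000363).

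The other copies in these families did not all follow. Rps15a-ps3 read 1, 22, 3 and 3, then 37, 19, 20 and 30, and 8, 3, 8 and 7 in Pdgfrβ-KO. It passed both tests (log2 fold changes of 2.35, adjusted p = 0.0185, and -1.89, adjusted p = 0.013, limma), but the 2 control groups overlapped through 2-month replicate 2. Rps15a-ps4, which carries T208C like the others, read 12, 13, 10 and 14, then 24, 17, 12 and 15, and 24, 17, 13 and 8, with overlap in each comparison of the 12-month controls and no call. Below the members' limit, Rps15a-ps8 had 0, 3, 0 and 0, then 28, 15, 1 and 20, and 0, 4, 4 and 0, and it lacks T208C. Rps13-ps4, which carries T499C like Rps13-ps1, stood at 25, 9, 20 and 22, then 29, 16, 8 and 19, and 29, 13, 7 and 17, with no call. Rps13-ps2, the copy identical to Rps13, took another course: 86, 54, 60 and 79, then 19, 50, 39 and 66, and 159, 187, 127 and 114. Its Pdgfrβ-KO libraries were above all others (log2 fold change against the 12-month controls 1.83, 1.09 to 2.58, adjusted p = 0.00767).

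The parents took another course than these copies. Rps13 stood at 7850, 5873, 6127 and 6515 normalized counts at 2 months, 6319, 7364, 6027 and 9210 in the 12-month controls, and 11832, 12820, 10471 and 8290 in Pdgfrβ-KO. The control groups overlapped, with a log2 fold change of 0.12 (adjusted p = 0.553, limma), and in Pdgfrβ-KO against 12-month controls the estimate was 0.59 and missed the threshold (adjusted p = 0.0542), opposite in sign to that of Rps13-ps1. The rise of Rps13 became a call with no filter on low values (adjusted p = 0.0241), with quantile normalization (0.0442), in 1 fit over all 12 libraries (0.0224) and without replicate 4 of the 12-month controls (0.0295) or of Pdgfrβ-KO (0.0216). Rps15a stood at 7969, 5734, 6531 and 6132, then 6246, 6871, 6178 and 9706, and 10620, 10480, 11054 and 7311. Its estimates were 0.12 with age (adjusted p = 0.582) and 0.45 in Pdgfrβ-KO (adjusted p = 0.134), the second of which became a call without replicate 4 of Pdgfrβ-KO (0.0433) and, at the threshold, without replicate 4 of the 12-month controls. Both parents rose in Pdgfrβ-KO against the 2-month controls, by 0.71 for Rps13 (adjusted p = 0.00295) and 0.57 for Rps15a (adjusted p = 0.0101). The means in the 12-month controls were 959 for Rps13-ps1 and 7230 for Rps13.

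The genes around the copies and around the parents were also compared. None of the 6 tested genes whose starts lay within 1 Mb of Rps13-ps1 passed with age, and none of 5 in Pdgfrβ-KO. Around Rps15a-ps5, 1 of 15 was higher and 3 lower with age, and 4 of 15 were lower and none higher in Pdgfrβ-KO. For Rps15a-ps6 the counts were 2 higher and 3 lower of 30 with age, and 2 and 2 of 30 in Pdgfrβ-KO. For Rps15a-ps7 they were 1 higher and 4 lower of 30 with age, and 2 higher and none lower of 31 in Pdgfrβ-KO. Rps15a-ps6 lies in an intron of Nudcd3, on the same strand, and Nudcd3 had log2 fold changes of -0.13 with age and -0.24 in Pdgfrβ-KO, neither past the threshold. Within 1 Mb of the parent Rps13, 4 of 10 tested genes passed with age and 1 of 10 in Pdgfrβ-KO. Around Rps15a, whose start is 1.77 Mb from that of Rps13, 1 of 14 and 3 of 14 did. Over all genes tested, 11.3% were higher and 11.4% lower with age. In Pdgfrβ-KO against the 12-month controls these shares were 4.96% and 4.46%. By a rule chosen after these values were seen (at least 4-fold and called in both comparisons in opposite directions, in either order, with the 12-month controls apart from both groups), 15 of 16265 genes with a mean of at least 10 switched in this way, or 0.0922%. Of the 15, 3 were members, Rps13-ps1, Rps15a-ps6 and Rps15a-ps7, from whose values the rule was drawn, and 7 lay on chromosome 7, which also holds both parents and 7.55% of the genes with a mean of at least 10. These 7 were Trim5, Trim12a, Trim30d, Trim34a, Trim34b, Lypd5 and Mrgprg. The Trim genes among them, whose products include virus restriction factors, start 11.9 to 12.1 Mb from Rps13. They lie close together in a cluster and are not independent hits. Relative to the Rps13 start, Mrgprg lay at 27.4 Mb and Lypd5 at -92.0 Mb. Trim12a read 0, 3, 6 and 1, then 1692, 1431, 1422 and 1515, and 81, 38, 16 and 5 in Pdgfrβ-KO. Trim30e-ps1, a pseudogene of that cluster below the members' limit, read 0 in all 2-month controls, 8, 8, 10 and 21 in the 12-month controls, and 2, 0, 0 and 0 in Pdgfrβ-KO. Whether the groups carried different alleles of this part of chromosome 7 was not tested, and with groups bred on a mixed background a difference in strain of origin and an effect of age or genotype cannot be told apart.

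**Figure D3:**
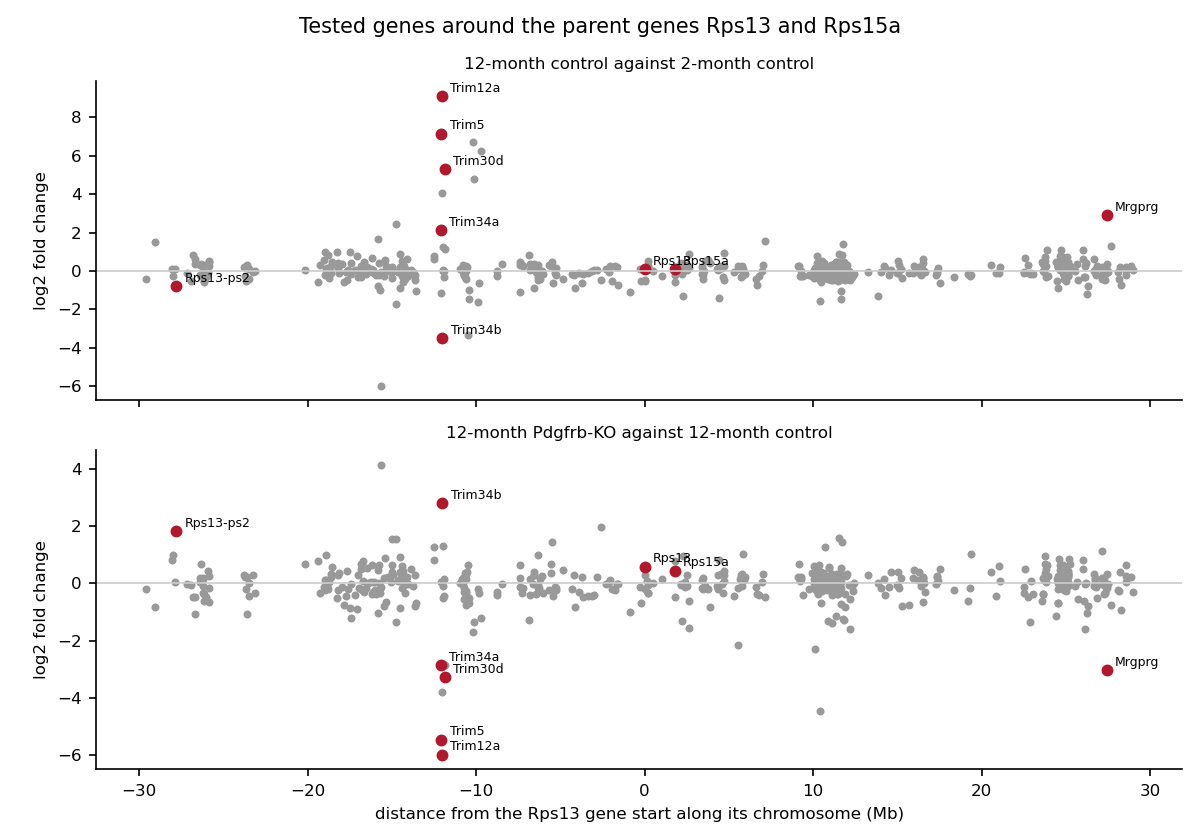
Log2 fold changes of tested genes (points) within 30 Mb of the Rps13 start, by distance in Mb along its chromosome, with age (top) and in Pdgfrβ-KO against the 12-month controls (bottom); red points are named. Trim5, Trim12a and Trim30d lie above 5 in the top panel and below -3 in the bottom panel, Trim34b lies the other way round, and Rps13 and Rps15a lie at 0.12 and 0.12 and then at 0.59 and 0.45.

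**Figure D4:**
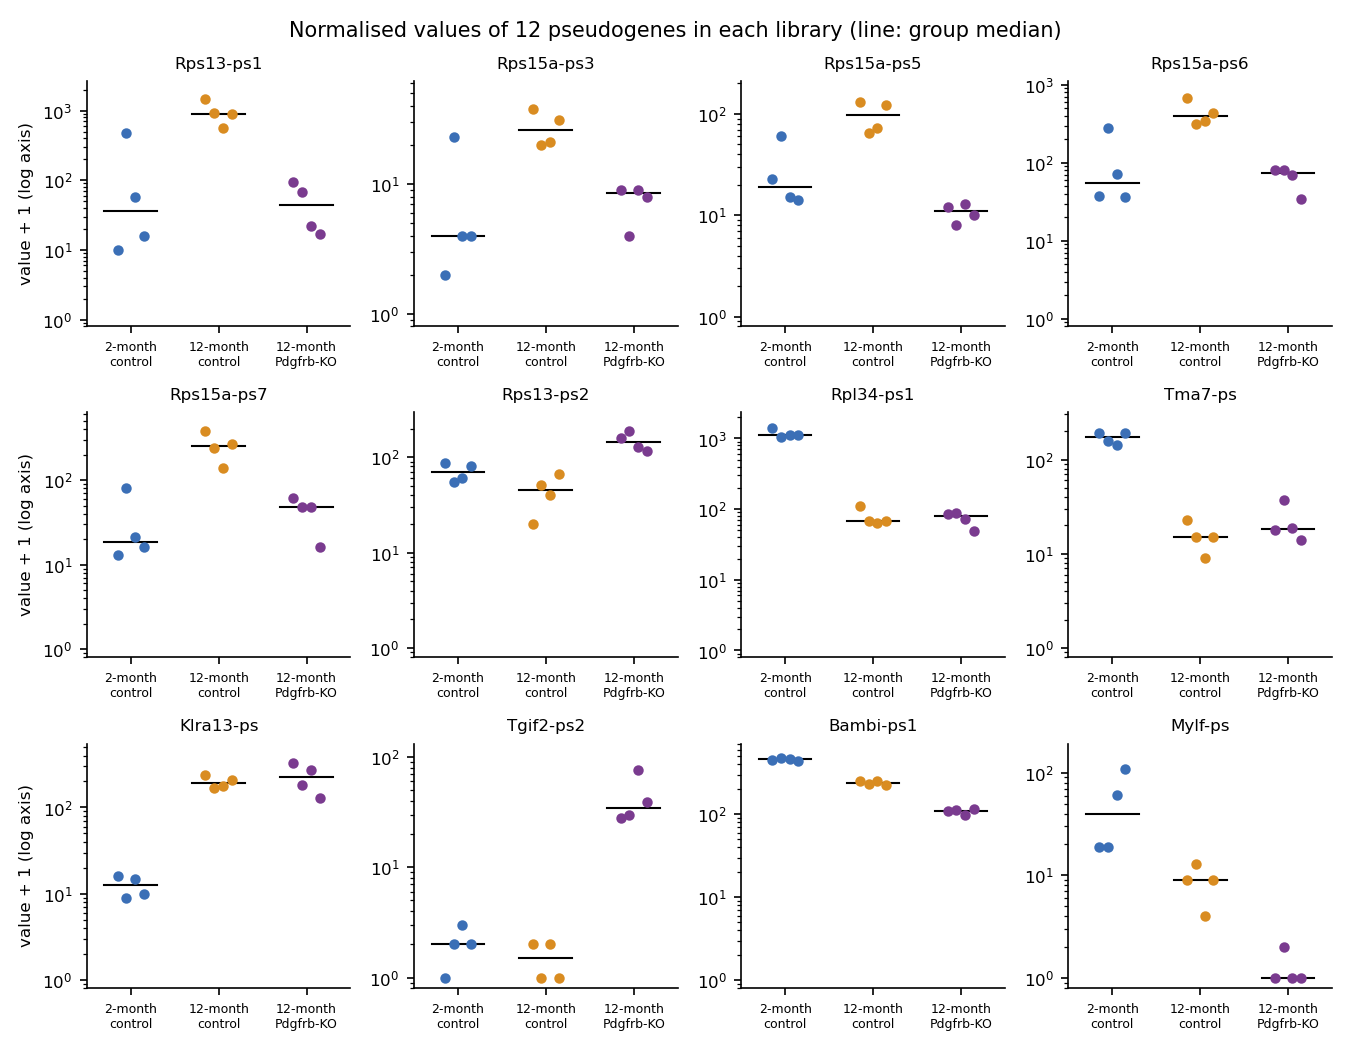
Normalized counts plus 1 of 12 members in each library (points, vertical log axes that differ between panels), with the 2-month controls, 12-month controls and Pdgfrβ-KO side by side and a line at each group median. Rps13-ps1 and the Rps15a copies are highest in the 12-month controls, Rpl34-ps1 and Tma7-ps at 2 months, and Tgif2-ps2 in Pdgfrβ-KO.

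A second set of members stood apart at 2 months and kept the 12-month level in Pdgfrβ-KO. The steepest fall was in Rpl34-ps1 (ENSMUSG00000068396, chromosome 6), a copy of the large ribosomal subunit gene Rpl34. It read 1407, 1049, 1123 and 1131 normalized counts at 2 months, 108, 67, 62 and 66 in the 12-month controls and 84, 87, 72 and 48 in Pdgfrβ-KO. Every 2-month library lay above every 12-month library, with a log2 fold change of -3.97 (95% interval -4.34 to -3.60, adjusted p = 1.21e-07, limma), and the 12-month groups overlapped (-0.06, adjusted p = 0.911). Rpl34 itself moved the other way, from 3946, 3767, 3396 and 3283 to 8853, 8840, 6916 and 11282, a log2 fold change of 1.30 (adjusted p = 7.05e-05), with 13102, 12419, 11379 and 7813 in Pdgfrβ-KO. The 241 bases shown, bases 331 to 571 of the parent transcript (chr3:130726884-130729111, minus strand, introns included) and chr6:71124714-71124954 (plus strand) of the copy, hold both of the copy's substitutions, T358C and C544G, in capitals.
Rpl34: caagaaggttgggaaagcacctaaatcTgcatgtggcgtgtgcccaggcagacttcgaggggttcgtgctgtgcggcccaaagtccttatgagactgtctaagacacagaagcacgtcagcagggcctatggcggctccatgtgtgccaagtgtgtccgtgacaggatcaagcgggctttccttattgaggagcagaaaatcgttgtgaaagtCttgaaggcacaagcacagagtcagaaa
Rpl34-ps1: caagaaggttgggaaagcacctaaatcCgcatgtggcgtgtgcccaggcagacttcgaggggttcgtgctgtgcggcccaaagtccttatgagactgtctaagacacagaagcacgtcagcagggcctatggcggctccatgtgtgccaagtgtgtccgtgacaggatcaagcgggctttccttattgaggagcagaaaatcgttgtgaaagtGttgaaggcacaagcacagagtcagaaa
Every 50-base window of Rpl34-ps1 was found in another gene, 71.5% of them in Rpl34. Gm10154, another gene that holds its windows, was low, with 3 to 9 in the 2-month controls and 2 to 6 in the 12-month groups. Around Rpl34-ps1, 18 of 46 tested genes within 1 Mb were higher and 1 lower with age, beside 11.3% and 11.4% of all genes. Genes of a cluster can move together, so these neighbours are not independent. Their link to the fall of Rpl34-ps1 was not tested.

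Tma7-ps (chromosome 1), a copy of the gene for translation machinery associated protein 7, was also high at 2 months alone. It read 188, 158, 141 and 192 at 2 months, 22, 14, 8 and 14 in the 12-month controls and 17, 36, 18 and 13 in Pdgfrβ-KO. The groups of different age did not overlap, and the log2 fold change with age was -3.53 (adjusted p = 7.49e-06, limma). Its 195 aligned bases differed from Tma7 by A368G and C386T, and 53.4% of its windows were shared with the parent. Tma7, on chromosome 9, had an estimate of 0.28 with age (adjusted p = 0.0876), which became a call without 2-month replicate 1 or without 12-month replicate 3 (adjusted p = 0.0423 and 0.0267). Of 57 tested genes within 1 Mb of Tma7-ps, 9 were higher and 4 lower with age (22.8% called), beside 11.3% and 11.4% of all genes. Tma7-ps starts 1.86 Mb from Ifi213 and 2.07 Mb from another member that fell with age, Ifi203-ps.

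Ifi203-ps belongs to the Ifi200 genes, a chromosome 1 cluster of interferon-induced genes that includes sensors of DNA. It read 244, 312, 354 and 300 at 2 months, 111, 159, 143 and 92 in the 12-month controls and 114, 137, 112 and 145 in Pdgfrβ-KO, a fall of 1.27 with age (adjusted p = 0.000575, limma) with no overlap. Ifi203, 0.144 Mb away and sharing 24.3% of the windows of Ifi203-ps, rose by 1.04 (adjusted p = 0.000171). Of the 14 Ifi200 genes found, Ifi203-ps and Ifi203 themselves included, 9 were higher and 3 lower with age. Their median log2 fold change was 0.80 beside -0.01 over all genes, and none passed in Pdgfrβ-KO against the 12-month controls.

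Klra13-ps (chromosome 6) was among the members that rose with age. Its relatives are the Klra (Ly49) genes, which encode receptors of natural killer cells and differ in number and kind between inbred strains. Its values were 15, 8, 14 and 9 at 2 months, 236, 168, 177 and 209 in the 12-month controls and 328, 180, 273 and 129 in Pdgfrβ-KO. The ages were apart, with a log2 fold change of 4.02 (adjusted p = 8.55e-07, limma), and the 12-month groups overlapped. Among the 14 Klra genes, Klra13-ps itself included, 12 were tested and 10 were higher and none lower with age, with a median log2 fold change of 3.96. None of them passed in Pdgfrβ-KO against the 12-month controls. Klra4, Klra8 and Klra10 were listed at 0 in all 2-month libraries. A gene at 0 there could enter the age test only through the 12-month controls, and so could only be higher. Of 28 tested genes within 1 Mb of Klra13-ps, 16 were higher with age (57.1% called, against 11.3% higher over all genes). This window takes in Klra genes, with Klra9 and Klra4 starting 0.112 and 0.247 Mb away. The count therefore overlaps that of the Klra genes and is not separate from it. Natural killer and innate lymphoid markers moved less: 5 of 12 were higher with age, with a median of 0.50, and their summed values were 4097 to 4696 at 2 months and 4004 to 6550 in the 12-month controls. Their part in the rise of Klra13-ps was not tested.

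Rpl21-ps8, a copy of Rpl21 inside Mbp on chromosome 18, was near 0 at 2 months (0, 1, 1 and 1) and read 12, 12, 11 and 22 in the 12-month controls and 21, 24, 21 and 18 in Pdgfrβ-KO. The ages were apart at low counts, with a log2 fold change of 3.13 on the log2(value + 1) scale (adjusted p = 0.000584, limma), and Rpl21 rose by 0.93 (adjusted p = 0.000281). Mbp, which encodes myelin basic protein, went the other way (-0.79). Nlrp5-ps (chromosome 7) read 102, 85, 97 and 102, then 15, 28, 21 and 17, and 27, 29, 8 and 20, a fall of 2.23 with age (adjusted p = 5.57e-05). Its parent Nlrp5, a maternal gene of the oocyte, was listed at 0 in all 12 libraries. Nlrp5-ps overlaps an exon of Vmn1r90 on the same strand, which had at most 4 counts per library at 2 months. Tmem181b-ps (chromosome 17) read 404, 344, 389 and 370, then 235, 158, 178 and 159, and 122, 148, 135 and 165, so the ages were apart. It fell by 1.06 with age (adjusted p = 0.000351), while Tmem181a was at 0.14 and did not pass.

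Weaker age differences were found for several more. Art2a-ps is a polymorphic pseudogene of an ADP-ribosyltransferase of T cells, and it read 56, 23, 44 and 21, then 2, 16, 14 and 15, and 13, 32, 56 and 34. The control ages were apart (log2 fold change -1.70, adjusted p = 0.0411, limma), and Art2b, 0.0245 Mb away, rose by 2.45 (adjusted p = 0.000303). The call for Art2a-ps was lost without any of the 2-month replicates (adjusted p from 0.0544 to 0.105), without 12-month replicate 1 (0.053) and with no filter (0.0596). Hspd1-ps4, a copy of the mitochondrial chaperonin gene Hspd1, read 3, 6, 3 and 11, then 18, 14, 12 and 12, and 11, 21, 18 and 15. It rose by 1.29 (adjusted p = 0.0415); in the fits that left out a library the estimate was 1.09 to 1.62, but the call held only without 2-month replicate 4. Hspd1 fell by 0.35 (adjusted p = 0.0229), a call lost with quantile normalization (0.0534) and without 2-month replicates 1, 3 or 4 (0.0532 to 0.0651). Ftl1-ps1, a ferritin light chain copy annotated as protein coding, read 147, 97, 114 and 171, then 204, 250, 157 and 240, with 497, 437, 265 and 221 in Pdgfrβ-KO. It overlapped between the control ages and rose by 0.69 (adjusted p = 0.0271), beside 0.60 for Ftl1 (adjusted p = 0.00513), a pair that moved in the same direction. Btnl7-ps, Gpr137b-ps, Gpx4-ps2 and Rpl38-ps2 also rose, by 1.14, 0.48, 0.67 and 0.87, and Slc22a13b-ps and Ube2n-ps1 fell by 0.98 and 1.16.

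The third set stood apart in Pdgfrβ-KO. Tgif2-ps2 (chromosome 17), a copy of the gene for the transcriptional repressor Tgif2, read 0, 1, 2 and 1 at 2 months, 1, 0, 1 and 0 in the 12-month controls and 27, 29, 75 and 38 in Pdgfrβ-KO. It was at or near 0 in all 8 controls and present in all 4 Pdgfrβ-KO libraries. On the log2(value + 1) scale the difference from the 12-month controls was 4.81 (95% interval 3.76 to 5.87, adjusted p = 0.00038, limma). Tgif2 had an estimate of 0.09 (adjusted p = 0.708) in the same comparison. The stretch shown, 130 bases at chr17:40115475-40115604 (plus strand) beside bases 291 to 420 of the Tgif2 transcript (chr2:156844307-156853183, plus strand, introns included), begins at the first base of the copy and holds C302A and T392G, in capitals.
Tgif2: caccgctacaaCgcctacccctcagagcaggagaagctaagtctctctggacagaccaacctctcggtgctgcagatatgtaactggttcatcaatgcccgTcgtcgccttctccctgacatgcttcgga
Tgif2-ps2: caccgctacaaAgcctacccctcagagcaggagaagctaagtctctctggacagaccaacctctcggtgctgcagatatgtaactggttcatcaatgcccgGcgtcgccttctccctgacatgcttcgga
Over 735 aligned bases the copy had 5 substitutions, and 71.0% of its windows were shared with Tgif2. Windows were also shared with 5430405H02Rik (30.7%) and with Tgif2-ps1 (6.51%). These shares overlap, since the same window can be found in several genes. 5430405H02Rik read 75, 44, 57 and 51, then 67, 71, 60 and 76, and 111, 186, 158 and 130, so it too was above all controls in Pdgfrβ-KO (log2 fold change 1.06, adjusted p = 0.00769, limma). Which of these genes the reads came from was not tested.

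Akt2-ps (chromosome 11), a copy of the insulin-signaling kinase gene Akt2, read 4, 6, 13 and 6, then 4, 7, 6 and 3, and 22, 20, 28 and 18, with Pdgfrβ-KO above all controls. The difference from the 12-month controls was 1.97 (adjusted p = 0.00738, limma), while Akt2 was at 0.11. Pcna-ps2 (chromosome 19), a copy of the replication clamp gene Pcna, read 62, 67, 80 and 63, then 62, 49, 78 and 72, and 97, 758, 130 and 419. Replicates 2 and 4 of Pdgfrβ-KO carried most of the difference of 1.95 (0.77 to 3.14, adjusted p = 0.0454). Leaving out either gave adjusted p of 0.0701 and 0.0813, leaving out any 1 of the 12-month controls gave 0.0775 to 0.105, and with no filter it was 0.192. Pcna was at -0.02 (adjusted p = 0.93), while 6 of 8 markers of proliferating cells were higher in Pdgfrβ-KO, with sums of 8835 to 10430 in the 12-month controls and 11173 to 14947 in Pdgfrβ-KO. Their part in the values of Pcna-ps2 was not tested. Rps26-ps1 (44, 59, 61 and 37, then 50, 47, 43 and 52, and 92, 109, 76 and 70) was also above all controls in Pdgfrβ-KO. It rose by 0.82 (adjusted p = 0.03). The call was lost with no filter (0.0594) and without any 1 of the 12-month controls or of Pdgfrβ-KO replicates 1 and 2 (0.0523 to 0.0866), with estimates of 0.71 to 0.92 over all such fits.

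Downward, outside the Rps13 and Rps15a copies, 1 further ribosomal copy passed in Pdgfrβ-KO. Rpl17-ps10 read 311, 387, 362 and 305, then 306, 298, 379 and 411, and 206, 145, 253 and 266, with Pdgfrβ-KO below all controls (-0.70, adjusted p = 0.0497, limma). The call was lost in 7 of 8 fits that left out a library (adjusted p from 0.0523 to 0.131), the exception being that without Pdgfrβ-KO replicate 4. Rpl17-ps5, at 56, 153, 139 and 103, then 59, 51, 151 and 67, and 29, 21, 38 and 42, lay below all controls without passing (-1.22, adjusted p = 0.0546). Rpl31-ps8 and Tpt1-ps3 were also apart downwards without passing, and Gmfg-ps, Rpl35a-ps2, Rpl36-ps2, Rpl39-ps and Rpsa-ps9 were apart upwards without passing, with log2 fold changes of 0.59 to 1.07.

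Bambi-ps1 (chromosome 2) was ordered over the 3 groups and is the clearest case with no shared 50-base window. Bambi is a decoy receptor for TGF-β family ligands, and Bambi-ps1 was 88.6% identical to it and shared none of its 50-base windows with any other transcript. It read 446, 468, 464 and 433 at 2 months, 247, 229, 249 and 224 in the 12-month controls and 108, 110, 96 and 115 in Pdgfrβ-KO. No group overlapped another, and the spread within each was small. The log2 fold changes were -0.93 with age (adjusted p = 6.82e-05, limma) and -1.14 in Pdgfrβ-KO against 12-month controls (adjusted p = 0.000827). Bambi read 869, 838, 866 and 890, then 1002, 1185, 735 and 965, and 1041, 1117, 902 and 663, with overlap and no call in any comparison.

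Mylf-ps (chromosome 12), a copy of the fast muscle myosin light chain gene Myl1, was also ordered over the 3 groups. It read 18, 18, 60 and 108, then 8, 12, 3 and 8, and 0, 1, 0 and 0. It fell by 2.29 with age (adjusted p = 0.0136, limma) and had a log2 fold change of -5.05 in Pdgfrβ-KO against the 2-month controls (adjusted p = 0.00014), and was too low for a test against the 12-month controls. Myl1 read 468, 204, 765 and 602, then 252, 557, 315 and 251, and 86, 258, 105 and 87, overlapping between groups, with -1.44 in Pdgfrβ-KO against the 12-month controls (adjusted p = 0.031) and -0.50 with age (adjusted p = 0.405). Without 2-month replicate 2 the age estimate of Myl1 was -0.88 and passed (adjusted p = 0.0405). Of the windows of Mylf-ps, 65.1% were shared with Myl1. Of 10 skeletal muscle markers, Myl1 among them, 10 were lower in Pdgfrβ-KO against the 12-month controls, beside 4.46% of all genes. None of these markers passed with age, where Mylf-ps fell. Their summed values were 2598 to 9720 at 2 months, 3501 to 8740 in the 12-month controls and 850 to 2389 in Pdgfrβ-KO, and their part in the fall of Mylf-ps was not tested.

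Against the 2-month controls, where age and genotype are joined, Pdgfrβ-KO gave the most calls. Stk19-ps1, the copy of Stk19 0.0792 Mb from it on chromosome 17, read 3, 2, 4 and 4, then 3, 14, 13 and 10, and 35, 32, 19 and 12. Pdgfrβ-KO lay above every 2-month library (2.50, adjusted p = 0.00103, limma), while the control ages overlapped. The parent Stk19 was also called higher in Pdgfrβ-KO than at 2 months. Its estimates were 0.37 to 0.50 in the 8 fits that left out a library, and 4 of these lost the call. Nudc-ps1 read 8, 6, 9 and 6, then 8, 17, 7 and 9, and 44, 14, 41 and 25, a rise of 1.85 (adjusted p = 0.00357) with no overlap with the 2-month controls. Its parent Nudc, which shared 82.9% of its windows, rose in the same comparison by 0.50 (adjusted p = 0.00961, limma). Rbpj-ps3, a copy of the Notch pathway transcription factor gene Rbpj, read 115, 34, 21 and 112, then 9, 7, 23 and 10, and 2, 6, 15 and 15. It fell by 2.72 (adjusted p = 0.00671) and had fallen by 2.23 with age (adjusted p = 0.0119) with overlap, whereas Rbpj rose by 0.64 with age (adjusted p = 0.0173). Of the 62 ribosomal protein copies tested in this comparison 14 were higher and 4 lower, and of the 76 others 15 were higher and 14 lower, beside 22.4% and 22.7% of all genes. With age 7 of 58 ribosomal copies were higher and 1 lower, beside 11.3% and 11.4% of all genes. In Pdgfrβ-KO against the 12-month controls 2 of 62 were higher and 6 lower, beside 4.96% and 4.46%.

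Parents and copies were then set side by side. Of the 22 members called with age that had a parent, the parent passed in the same direction for 3, in the other direction for 5, did not pass for 12 and was not tested for 2. In Pdgfrβ-KO against 12-month controls the parent did not pass for any of 12. In Pdgfrβ-KO against 2-month controls 40 called members had a parent, which passed in the same direction for 23, in the other for 7, did not pass for 9 and was not tested for 1. Among all 95 parents tested, 46 were higher and 12 lower in that comparison, beside 22.4% and 22.7% of all genes tested. With age 19 parents were higher and 6 lower, and in Pdgfrβ-KO against the 12-month controls 1 was higher and 2 were lower. A call in one gene of a pair and none in the other does not show that they differ, and that difference was not tested.

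**Figure D5:**
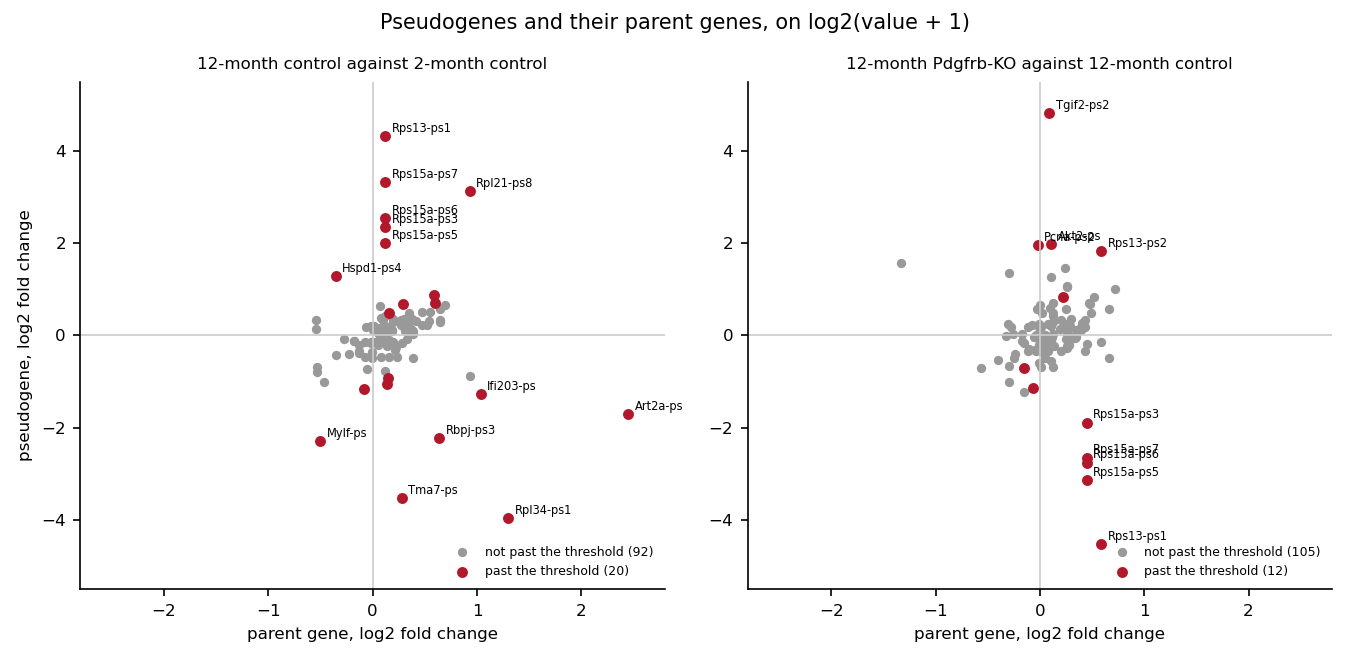
Log2 fold change of each tested member (vertical axis) against that of its parent (horizontal axis), both on log2(value + 1), with age (left) and in Pdgfrβ-KO against the 12-month controls (right); red members passed the limma threshold. Rps13-ps1, Rps15a-ps6 and Rps15a-ps7 lie far from 0 on the vertical axis with parents at 0.12 in the left panel, and Rpl34-ps1 lies at -3.97 with its parent at 1.30.

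The most abundant members and those with few shared windows differed among themselves. Tpt1-ps3, identical over its length to Tpt1 and the member with the highest mean (752 normalized counts), read 670, 849, 889 and 661, then 797, 756, 874 and 875, and 709, 670, 659 and 618. It had no call, although its Pdgfrβ-KO libraries lay below the 12-month controls (-0.31, adjusted p = 0.0744, limma). Ppp4r1l-ps, with 0.0385% of its windows found elsewhere, read 699, 712, 616 and 685, then 678, 687, 488 and 550, and 844, 740, 562 and 516, overlapping throughout. Tmem250-ps, annotated as a non-coding RNA, read 620, 535, 550 and 656, then 624, 850, 608 and 626, and 847, 1045, 732 and 804. It was higher in Pdgfrβ-KO than at 2 months (0.53, adjusted p = 0.00583) and passed no other comparison. Slc2a4rg-ps, with no shared window, read 504, 353, 398 and 331, then 465, 230, 220 and 316, and 262, 239, 276 and 307, and was lower in Pdgfrβ-KO than at 2 months (-0.53, adjusted p = 0.0128). Cdk3-ps, the polymorphic pseudogene of a cyclin-dependent kinase, read 29, 13, 12 and 14, then 16, 13, 5 and 10, and 6, 7, 12 and 4, with overlap in every pair of groups.

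Of the members too low to test, Rpl15-ps2 had the most uneven values: 1, 3, 0 and 0 at 2 months, 1, 80, 6 and 88 in the 12-month controls, and 0 in all 4 Pdgfrβ-KO libraries. Replicates 2 and 4 carried the 12-month level while replicate 1 lay within the 2-month range, so the 12-month controls were not alike. Rpl15-ps3, another copy of the same gene, read 8, 17, 9 and 9, then 5, 20, 16 and 20, and 5, 7, 6 and 4.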

How the data were processed

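Poly(A) RNA of the SVF was sequenced from 12 libraries, and 2 tables of normalized counts were used, joined on the gene identifier, with identical 12-month control columns. The authors trimmed reads with Trim Galore 0.6.0 and cutadapt, aligned them with STAR 2.7.0e to GRCm38, and normalized counts with DESeq2 1.26.0. The deposited values are such normalized counts rounded to whole numbers, treated here as a score and not as raw counts, so no count model was fitted. The counting tool, its strand setting and its treatment of reads with several matches are not given in the sources used here, so overlapping and antisense genes and near-identical copies are uncertain.

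Members were genes ending in -ps or -ps and a number with a mean of at least 10. Members and gene lists were chosen with earlier results of these data known. A gene entered a comparison when 4 or more of its 8 libraries reached 10, and was tested with limma 3.58.1 in R 4.3.3 on log2(value + 1), with a variance trend, robust estimation and Benjamini-Hochberg adjustment over all genes tested (two-sided, threshold 0.05). Fold changes are on that scale, which understates those of low genes. The fit was tested on simulated data. Named with all values were up to 12 members per comparison, those that were called, apart and changed most, their parents, and further members for their type or sequence. Transcripts were aligned with BLAST 2.17.0 and cut into windows of 50 bases, any strand of any other gene's transcript counting. Depth limits low members: counting error alone is large under 10. Alternatives were other pseudocounts, filters, scalings, 1 fit over all libraries, a replicate block and leaving out each library.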

Additional observations from a re-analysis of the deposited data

Results flagged for a closer look

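In 69 groups of 4 libraries over 23 members, the highest or lowest library was compared with the others by Dixon's ratio, the gap to the nearest library over the group's range, and 9 groups passed the 95% critical value for 4 libraries; chance flags about 1 in 20 groups. In 4 of them the library was 2-month replicate 2, the highest of its group for Rps13-ps1 (474, ratio 0.899), Rps15a-ps3 (22, ratio 0.905), Rps15a-ps6 (280, ratio 0.852) and Rps15a-ps7 (79, ratio 0.881). These copies are the ones that were high in the 12-month controls, and in this 2-month library they were high together. The Rps15a copies share windows with one another, so their flags are not independent. Rpl34-ps1 had its highest 12-month value in replicate 1 (108, ratio 0.891), and Art2a-ps its lowest 12-month value there (2, ratio 0.857). Rpl21-ps8 was lowest in 2-month replicate 1 (0, ratio 1.0) and highest in 12-month replicate 4 (22, ratio 0.909), and Mylf-ps was highest in Pdgfrβ-KO replicate 2 (1, ratio 1.0), the last of which rests on a single count.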

How the results depend on the processing

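No member called in a comparison changed direction under the other pseudocounts, filters, scalings or fits; of the 24 called with age, 18 were called the same way with no filter on low values, 20 in 1 fit over all 12 libraries and 24 under other pseudocounts. With a mean of at least 50 fewer members were tested. The calls then numbered 15 with age (6 lower) and 26 in Pdgfrβ-KO against the 2-month controls (15 higher and 11 lower). In Pdgfrβ-KO against the 12-month controls 3 were higher at that mean. Of the 12 main calls of that comparison, higher or lower, 9 were tested at that mean, and all 9 were called the same way. With no filter on low values 3 were higher in that comparison, and 10 of the 12 main calls were called the same way. With a mean of at least 20, 88 genes would be members. Leaving out 1 library gave 15 to 24 calls with age (7 to 13 higher, 8 to 11 lower), the fewest without 2-month replicate 3, 8 to 16 in Pdgfrβ-KO against the 12-month controls (2 to 6 higher, 5 to 10 lower) and 32 to 44 against the 2-month controls (17 to 26 higher, 11 to 18 lower). Members apart numbered 25 to 44 with age (12 to 27 higher, 12 to 17 lower), most without 12-month replicate 3, and 24 to 35 (11 to 18 higher, 12 to 17 lower) and 41 to 58 (24 to 37 higher, 16 to 21 lower) in the Pdgfrβ-KO comparisons, most without Pdgfrβ-KO replicate 4. Estimates near 0 changed sign: Bambi in Pdgfrβ-KO against the 12-month controls without 12-month replicate 2 (0.03) or Pdgfrβ-KO replicate 4 (0.08; range over all such fits -0.20 to 0.08) and against the 2-month controls without Pdgfrβ-KO replicate 2 (-0.02; range to 0.23), Pcna without 12-month replicate 4 (0.01) or Pdgfrβ-KO replicate 4 (0.11; range from -0.10), and, without 12-month replicate 4, Rps13 (-0.00089; range to 0.21) and Rps15a (-0.03; range to 0.22) with age. None of these passed, and the cause was not tested. Replicate numbers did not pair the libraries, since same-numbered libraries did not all deviate together; with a replicate block the calls were 18 with age (10 higher, 8 lower), 15 in Pdgfrβ-KO against the 12-month controls (7 higher, 8 lower) and 40 against the 2-month controls (24 higher, 16 lower). Pseudocounts of 0.5 and 5, and rescaling by median ratio, left the number of calls within 1.5 times.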
